A study of Mus musculus with 33 samples.

Results

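The interferon families described here are the measured genes whose array symbols name them as interferon regulatory factors (Irf), STAT factors, interferon receptors and their Janus kinases, guanylate-binding proteins (Gbp), immunity-related GTPases, oligoadenylate synthetases (Oas), Mx GTPases, TRIM and PARP proteins, the modifier Isg15 with its protease Usp18, the numbered Ifi and Isg genes, and the single genes Ifih1, Rsad2, Samhd1 and Adar. The genes were taken by symbol alone, and the Ifit and Ifitm families were left out. Of 93 symbols of the array annotation that meet the rule, 73 had a value on at least 1 array and 20 had none. The members are therefore 73 of 9672 measured genes, and 48 of them were measured on all 33 arrays. Irf7 and Irf5 are among the 20 symbols without a value.

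The cells were whole spleen cell suspensions of female BALB/c mice aged 2 months, kept in culture for 2, 4 or 8 h. One group received CpG oligodeoxynucleotides (ODN), short synthetic DNAs with unmethylated CpG motifs, as an equimolar mix of ODN 1555 and ODN 1466 at 1 uM. A second group received a mix of the control ODN 1612 and 1471 at the same dose, and the third was kept in medium alone. Each group had 4 arrays at 2 h, 4 arrays at 4 h and 3 arrays at 8 h. Spleen RNA carried Cy5 and a pooled Universal Mouse Reference RNA carried Cy3 on every array, so each value is the log2 ratio of spleen cells to that pool, here centred on the array's median. A ratio to a pool is not a level that can be set against another gene's, and the values below compare groups for 1 gene at a time. The series' design text speaks of 3 to 4 independent experiments, but the labels do not say which arrays share a mouse or a culture, so the p-values measure the spread between these arrays.

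Interferons act through receptor pairs at the cell surface, Ifnar1 with Ifnar2 for the type I interferons and Ifngr1 with Ifngr2 for interferon gamma. The bound receptors switch on the kinases Jak1, Jak2 and Tyk2, which activate STAT factors. A complex that holds Stat2 and Irf9 then binds the interferon-stimulated response element (ISRE), and STAT dimers bind the gamma-activated site (GAS), in front of genes that restrict viruses and intracellular microbes. CpG DNA is sensed by the receptor Tlr9, which in mouse spleen is found above all in B cells and dendritic cells, and plasmacytoid dendritic cells answer it with type I interferon.

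RefSeq promoter windows of build GRCm38.p6, each from 250 bases before to 50 bases after a gene's start, were found for 57 of the 73 members. Both strands were searched for the ISRE letters GAAANNGAAA, where N is any base, and a gene with several windows was counted once. The ISRE letters stood in 13 of the 22 members with a window that were higher with CpG ODN than with control ODN at 8 h (59.1%), in 5 of the 33 that were not called (15.2%) and in 0 of the 2 that were lower. The 33 and the 5 include Irgm2, which was not tested. Of all 27025 genes with a window, 3.99% held them. Some sites are shown because they stand in front of the members that rose most, and others because near-identical sites stand in front of a member that rose and 1 that could not be tested. Capitals mark the first match of each line to the ISRE letters, or to their reverse complement where they lie on the other strand. A further match that overlaps the first is left in lower case in the Gbp3 and Irgm1 lines, and every line reads 5′ to 3′ on the gene's own strand.
Gbp2: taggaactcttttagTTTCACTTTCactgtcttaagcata
Gbp3: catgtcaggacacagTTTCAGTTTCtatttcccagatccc
Gbp7: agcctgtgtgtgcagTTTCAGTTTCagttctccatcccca
Irgm1: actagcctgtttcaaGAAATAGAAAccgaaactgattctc
Igtp: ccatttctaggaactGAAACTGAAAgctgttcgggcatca
Irgm2: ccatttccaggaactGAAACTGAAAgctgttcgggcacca
Stat2: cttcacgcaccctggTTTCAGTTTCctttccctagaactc
Trim30a: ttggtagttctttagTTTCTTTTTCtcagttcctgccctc
Oas3: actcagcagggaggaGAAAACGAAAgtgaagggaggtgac

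The 3 Gbp sites lie on chromosome 3, at chr3:142620589-142620628 for Gbp2, chr3:142559984-142560023 for Gbp3 and chr3:142530268-142530307 for Gbp7, all on the plus strand. The Igtp and Irgm2 sites, at chr11:58199507-58199546 and chr11:58214898-58214937 on the plus strand, are identical at 38 of their 40 bases. The Irgm1 site is at chr11:48871426-48871465 on the minus strand, the Stat2 site at chr10:128270261-128270300 on the plus strand, the Trim30a site at chr7:104465205-104465244 on the minus strand and the Oas3 site at chr5:120777710-120777749 on the minus strand. In front of Gbp2 the match begins 59 bases before the start, in front of Trim30a 36 and in front of Irgm1 30. Oas3 carries the letters too, and its difference at 8 h was -0.07. The GAS letters TTCNNNGAA stood in 8 of the 22 higher members (36.4%), in 3 of the 33 uncalled members (9.09%) and in 9.55% of all genes. The 33 and the 3 again include the untested Irgm2. ISRE and GAS letters stood in 1 window in 4 members, without overlap. At least 1 of the pair was found in 19 of the 22 higher members. The share of all genes with at least 1 was not counted, so this count has no background. Among the uncalled members Ifnar2, Irf2, Oas3, Stat4 and Trim12a held at least 1 too, as did the untested Irgm2. The NF-kB letters GGGANNTTCC were found in 2 of the 22 higher members (9.09%), in 2 of the 33 uncalled members (6.06%) and in 1.63% of all genes. A match is a run of letters and was not tested for binding.

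Most of the members that responded to CpG ODN did so between 4 and 8 h. A gene was called higher or lower where limma's moderated test gave a Benjamini-Hochberg adjusted p below 0.05 over all genes tested. Against control ODN at 2 h, 0 of 71 members tested were called (limma), against 0.0430% of all genes. An unadjusted p below 0.05 was found for 0 of the 71 members and for 213 of all 9302 genes. At 4 h 3 of 73 members were higher and 0 lower, against 0.384% of all genes called. At 8 h 29 of 72 members were higher, against 4.55% of all genes, and 3 were lower, against 5.45% of all genes. The median difference of the 72 members was 0.05 and that of all 9494 genes -0.12. Quantile normalization between arrays turned the split of all called genes from 432 higher and 517 lower to 414 and 212, and that of the members from 29 and 3 to 28 and 1.

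Ranges that did not overlap showed the same split. At 8 h every CpG ODN array lay above every control ODN array in 31 of 72 members, against 10.8% of all genes, and below in 9, against 19.3% of all genes. The share below was thus under the background. At 4 h 13 of 73 members lay above, against 2.22% of all genes, and 0 lay below, against 1.43%. More members thus stood apart at 4 h by this count than by the test.

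**Figure D1:**
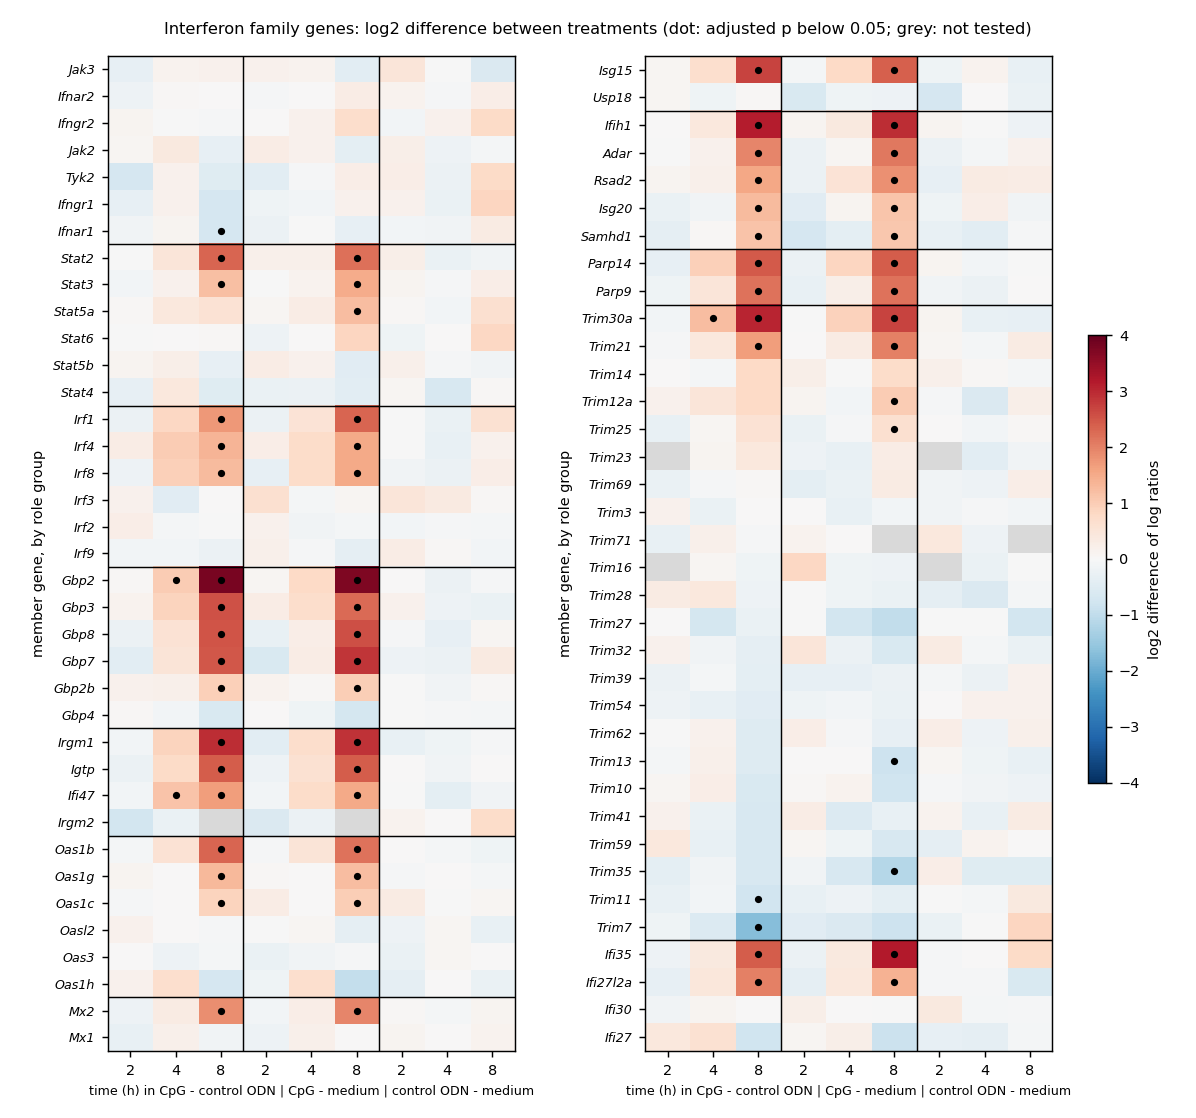
Log2 difference between treatments for each of the 73 members (rows, by role group and in order of the difference at 8 h) in 9 comparisons (columns: CpG ODN minus control ODN, CpG ODN minus medium, and control ODN minus medium, each at 2, 4 and 8 h). Dots mark an adjusted p below 0.05 and grey marks a comparison without enough arrays; the calls stand almost entirely in both 8 h columns of CpG ODN, with 3 at 4 h and 0 between control ODN and medium.

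Receptors and kinases were the one role group without a higher member. Of 7 tested at 8 h 1 was lower, and the group's median difference from control ODN was -0.33. Ifnar1, the signalling chain shared by all type I interferons, read 1.40, 1.11 and 1.07 on the CpG ODN arrays 1 to 3 and 1.95, 1.95 and 1.71 on the control ODN arrays. All CpG values lay below all control values, and the difference was -0.67 ± 0.18 (SE; limma adjusted p = 0.0144, n = 3 arrays per group). Against medium, whose arrays read 1.52, 1.36 and 1.73, Ifnar1 was not called. The call against control ODN was lost without CpG array 2 (-0.63), CpG array 3 (-0.61) or control array 2 (-0.63), and under quantile normalization (-0.43). Its partner Ifnar2 differed by 0.03, with a 95% interval from -0.33 to 0.39. The chains of the interferon gamma receptor differed by -0.67 (Ifngr1) and -0.06 (Ifngr2), and the kinases Jak2, Jak3 and Tyk2 by -0.33, 0.17 and -0.50, without a call. The spleen holds many cell types, and in bulk RNA fewer cells of a type cannot be told apart from less RNA per cell.

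Among the STAT factors, which carry the receptor signal to the nucleus, 2 of 6 were higher at 8 h. Stat2, the partner of Irf9 in the ISRE-binding complex, read 2.79, 3.14 and 2.94 on the CpG ODN arrays against 0.52, 1.07 and 0.27 with control ODN and 0.27, 1.38 and 0.60 in medium. The lowest CpG array was above the highest of the other 6, with a difference from control ODN of 2.33 ± 0.27 (SE; adjusted p = 2.83e-07), which is 5.04-fold when the ratios are read as base 2. At 4 h the CpG arrays read 0.02, 0.15, 0.56 and 0.42 and the control ODN arrays -0.19, -0.15, -0.32 and -0.09. These did not overlap either, but the difference of 0.47 ± 0.23 was not called (adjusted p = 1). Stat3, the factor downstream of interleukin-6 and interleukin-10, read 2.26, 2.19 and 2.50 against 1.25, 0.75 and 1.37 at 8 h. It was 1.19 ± 0.31 higher (adjusted p = 0.0129), and its other probe differed by 0.92. Its call was lost without CpG array 3 (1.10) or control array 2 (1.00). Stat5a, Stat5b, Stat6 and Stat4, which serve other cytokines, differed by 0.57, -0.32, 0.04 and -0.48, and of these Stat5a was called against medium, at 1.22 ± 0.25 (adjusted p = 0.00122).

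Of the 6 interferon regulatory factors, Irf1, Irf4 and Irf8 were higher at 8 h, and Irf2, Irf3 and Irf9 were not called. Irf1, an activator that binds ISRE-like sequences, read 3.30, 3.35 and 3.01 with CpG ODN, 1.58, 1.02 and 1.90 with control ODN and 1.15, 0.72 and 0.77 in medium. The CpG arrays stood above all others, by 1.72 ± 0.29 against control ODN (SE; adjusted p = 1.16e-04). At 4 h the CpG arrays of Irf1 read 1.29, 1.34, 1.68 and 2.07 and the control ODN arrays 0.81, 0.72, 0.54 and 1.01, again without overlap. The 4 h difference of 0.83 ± 0.25 was not called (adjusted p = 0.408).

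Irf4, a factor of activated B and T cells, read 2.19, 2.70 and 2.32 at 8 h against 0.94, 1.34 and 0.85 with control ODN. It was higher by 1.36 ± 0.31 (SE; adjusted p = 0.00325), without overlap. Irf8, a factor of B cells and dendritic cells, read 5.06, 5.45 and 5.42 against 4.13, 4.13 and 3.87. It was higher by 1.27 ± 0.35 (adjusted p = 0.0173), a call that was lost without CpG array 2 (1.20), CpG array 3 (1.21) or control array 3 (1.18). Both had most of their difference by 4 h, at 1.03 ± 0.26 for Irf4 and 0.94 ± 0.30 for Irf8, and neither was called then (adjusted p = 0.109 and 0.546). Within CpG ODN, however, the 6 factors changed by -0.77 to 0.17 from 2 to 4 h, without a call. Over the same hours the control ODN mean went from 1.48 to 0.68 for Irf4 and from 4.31 to 3.35 for Irf8. On the 4 h arrays Irf4 read 1.31, 1.08, 2.37 and 2.07 with CpG ODN and 0.54, 0.60, 0.31 and 1.26 with control ODN, which overlap through CpG array 2 and control array 4. Irf9, the DNA-binding part of the ISRE complex, had values on 29 arrays, and its difference of -0.24 at 8 h had an interval from -1.05 to 0.58. Irf3, a transducer of viral sensing, and Irf2, which can repress Irf1 targets, differed by 0.03 and -0.02.

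**Figure D2:**
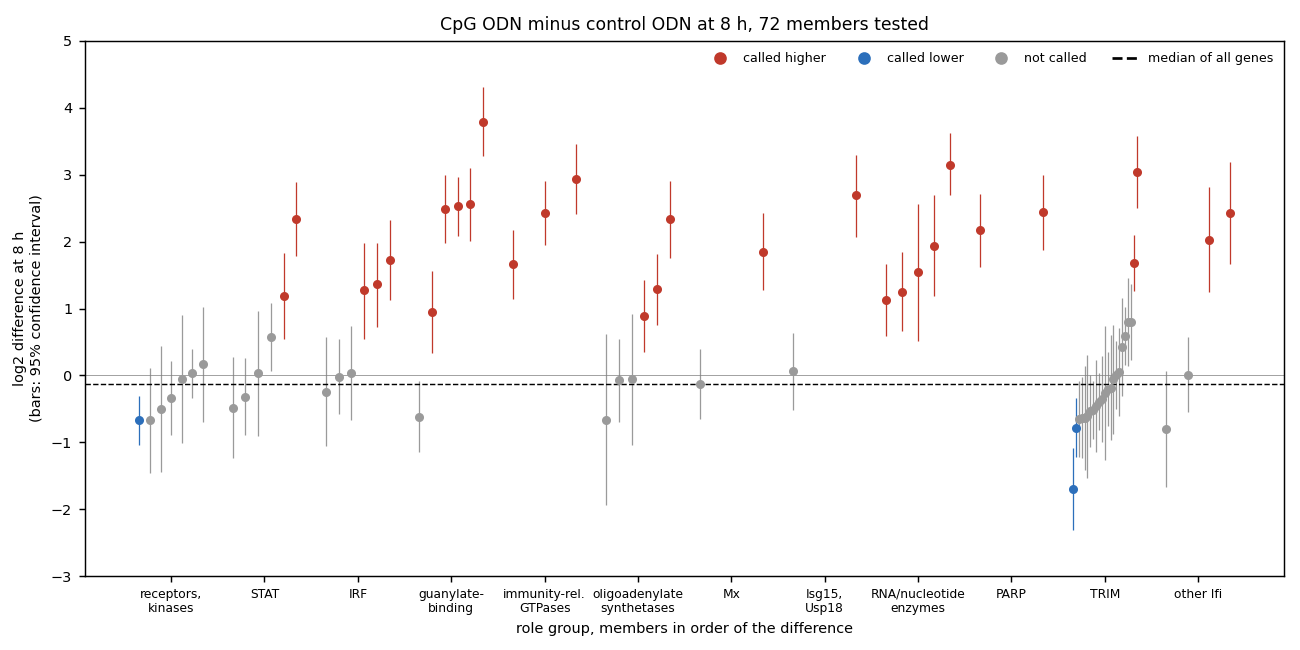
Log2 difference between CpG ODN and control ODN at 8 h for the 72 members tested, by role group, with 95% confidence intervals. Red points were called higher and blue points lower; the dashed line is the median of all genes tested, -0.12, and the highest point is Gbp2 at 3.79.

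The guanylate-binding proteins, interferon-induced GTPases that gather on the vacuoles of intracellular microbes, were higher in 5 of 6 members tested at 8 h. Their median difference was 2.51, close to the 2.43 of the immunity-related GTPases, and families were not tested against each other. Gbp2 had the largest difference of all members. It read 4.45, 4.84 and 4.72 with CpG ODN, 0.87, 1.10 and 0.66 with control ODN and 0.85, 1.30 and 0.66 in medium at 8 h. The lowest CpG array stood over 3 log2 units above the highest of the others, and the difference from control ODN was 3.79 ± 0.25 (SE; adjusted p = 2.95e-12), or 13.9-fold with an interval from 9.71-fold to 19.8-fold. At 4 h Gbp2 read 1.04, 1.15, 1.51 and 1.63 with CpG ODN and 0.36, 0.35, -0.11 and 0.62 with control ODN. It was 1 of the 3 members called then, at 1.03 ± 0.22 (adjusted p = 0.0164). That call was lost without CpG array 3 (0.97) or 4 (0.93) and without control array 2 (1.05) or 3 (0.89). At 2 h Gbp2 read 0.77, 0.20, 0.18 and 0.39 with CpG ODN and 0.58, 0.02, 0.68 and 0.01 with control ODN, within the same range.

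Gbp3 read 3.87, 3.79 and 3.96 at 8 h against 1.32, 1.47 and 1.16 with control ODN. Gbp8 read 4.83, 4.60 and 4.27 against 2.21, 2.01 and 1.89, and Gbp7 4.52, 4.34 and 5.28 against 1.77, 2.30 and 2.60. None of these 3 genes had overlapping arrays, and their differences were close, at 2.56 ± 0.27, 2.53 ± 0.22 and 2.49 ± 0.25 (adjusted p = 3.98e-08, 9.86e-10 and 2.10e-08). Gbp2b differed by 0.95 ± 0.30 (adjusted p = 0.0384). Its call was lost without CpG array 3 (0.53) or control array 1 (0.97) or 2 (0.75), and under quantile normalization (0.92). Gbp4 went the other way, with 0.32, 0.14 and 0.27 on the CpG ODN arrays against 0.60, 0.97 and 1.02, and its difference of -0.62 was not called (adjusted p = 0.149). The family lies on chromosome 3 (Gbp2, Gbp2b, Gbp3, Gbp7) and chromosome 5 (Gbp4, Gbp8), and both chromosomes hold a member that rose by over 2.

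Immunity-related GTPases, which act on the same vacuoles and in autophagy, were higher in 3 of 3 members tested at 8 h. Irgm1 read 3.33, 3.30 and 3.93 with CpG ODN against 0.51, 0.69 and 0.54 with control ODN and 0.43, 0.51 and 0.99 in medium. It rose by 2.94 ± 0.26 (SE; adjusted p = 1.35e-09), with a wide gap between the groups. Igtp read 4.55, 4.69 and 4.17 against 2.03, 2.24 and 1.86. It was 2.43 ± 0.24 higher (adjusted p = 1.09e-08), also without overlap.

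Ifi47, a GTPase of the same family also called Irg47, read 4.84, 4.81 and 4.87 with CpG ODN at 8 h and 2.93, 3.30 and 3.32 with control ODN. The difference was 1.66 ± 0.25 (adjusted p = 2.35e-05). At 4 h it read 3.30, 3.23, 3.65 and 3.72 against 2.43, 1.95, 2.08 and 2.86, and the difference of 1.14 ± 0.22 was called (adjusted p = 0.00543). Its control ODN array 4 came nearest to the CpG arrays. Irgm2, whose promoter site nearly matches that of Igtp, had 1 CpG ODN value at 8 h, 0.14, against -0.07, 0.53 and 0.09 with control ODN, and was not tested.

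Oligoadenylate synthetases, a family named for enzymes that make the 2′-5′ oligoadenylates that switch on RNase L, split evenly. Whether each member is an active enzyme was not tested. Oas1b, Oas1g and Oas1c were higher at 8 h, and Oasl2, Oas3 and Oas1h were not called. Oas1b read 1.83, 2.06 and 2.42 with CpG ODN and -0.93, -0.02 and 0.27 with control ODN, a rise of 2.33 ± 0.28 (SE; adjusted p = 7.61e-07) without overlap. Oas1g read 1.98, 2.17 and 1.75 against 0.54, 0.81 and 0.66, a rise of 1.29 ± 0.26 (adjusted p = 9.30e-04). Oas1c read 0.91, 1.38 and 1.41 against -0.41, 0.54 and 0.89, so that its lowest CpG array was just above its highest control array. Its difference of 0.89 ± 0.27 (adjusted p = 0.029) was not called without control array 1 (0.51), CpG array 2 (0.82) or CpG array 3 (0.80). Oas3 read 2.21, 2.37 and 2.66 with CpG ODN and 2.21, 2.46 and 2.77 with control ODN. The groups coincide, and the interval of the difference ran from -0.69 to 0.55. The Oas1 genes are close copies of each other, and how far their probes pick up each other's RNA was not tested.

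The Mx GTPases, a family known for blocking viral nucleocapsids, gave 1 call. These RNA values do not show whether BALB/c cells make working Mx proteins. Mx2 had values on 2 of the 3 CpG ODN arrays at 8 h, 3.40 and 4.06, against 2.23, 1.63 and 1.79 with control ODN. It was higher by 1.85 ± 0.28 (SE; adjusted p = 5.13e-05; n = 2 and 3). Mx1 had values on 26 arrays and differed by -0.13, with an interval from -0.65 to 0.39.

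Isg15, a ubiquitin-like modifier, read 3.24, 3.14 and 3.55 with CpG ODN, 0.85, 1.03 and -0.02 with control ODN and 0.70, 1.42 and 0.62 in medium at 8 h. It was 2.69 ± 0.30 higher than with control ODN (adjusted p = 1.49e-07), or 6.45-fold, with no overlap. At 4 h all 4 CpG arrays (2.27, 1.94, 1.78 and 1.78) were above the control arrays (1.72, 1.32, 1.20 and 0.82), and the difference of 0.68 ± 0.26 was not called. Usp18, the protease that removes Isg15 and dampens the type I receptor, had values on 27 arrays and read 0.11, -0.30 and -0.51 with CpG ODN against -0.12, -0.03 and -0.72 with control ODN at 8 h. These overlap fully, and the difference of 0.06 had an interval from -0.51 to 0.63.

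Sensors and enzymes acting on RNA or nucleotides were higher in 5 of 5 members at 8 h. Ifih1 encodes Mda5, the sensor of long double-stranded RNA. It read 3.50, 3.35 and 3.20 with CpG ODN, 0.25, 0.30 and 0.04 with control ODN and 0.56, 0.78 and -0.10 in medium. It was the member with the second largest rise, 3.15 ± 0.23 (SE; adjusted p = 1.66e-11), and its arrays at 4 h overlapped, at 0.92, 1.22, 0.59 and 0.47 with CpG ODN against 0.28, 0.68, 0.62 and -0.01. Adar, which edits adenosine to inosine in double-stranded RNA, read 1.70, 3.77 and 3.06 against 0.18, 0.70 and 1.82. It was 1.94 ± 0.37 higher (adjusted p = 6.37e-04) and the only one of the 29 higher members whose arrays overlapped, through CpG array 1 and control array 3.

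Rsad2, or viperin, read 5.02, 4.38 and 4.81 with CpG ODN at 8 h and 3.79, 3.48 and 2.33 with control ODN. Its difference of 1.54 ± 0.50 was just within the threshold (adjusted p = 0.0456). It was not called without any 1 of CpG arrays 1 (1.40), 2 (1.72) and 3 (1.50) or control arrays 2 (1.68) and 3 (1.10), nor under quantile normalization (1.56). Isg20, an exonuclease, read 2.46, 2.69 and 2.82 against 1.36, 1.71 and 1.15. Its rise of 1.25 ± 0.29 (adjusted p = 0.00421) at 8 h followed a 4 h difference of -0.13. Samhd1, which degrades deoxynucleotides, read 3.38, 3.10 and 3.06 against 1.82, 2.27 and 2.06, 1.13 ± 0.26 higher (adjusted p = 0.00463).

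Both PARP members, which act in ADP-ribosylation, were higher. Parp14 read 4.81, 4.40 and 5.23 with CpG ODN and 1.94, 2.35 and 2.84 with control ODN, a rise of 2.44 ± 0.27 (SE; adjusted p = 1.59e-07). Parp9 read 3.26, 3.44 and 3.70 against 0.83, 1.58 and 1.50, a rise of 2.17 ± 0.27 (adjusted p = 7.77e-07). Neither gene's arrays overlapped. Ifi35, a partner of Nmi in innate signalling, read 2.47, 3.01 and 3.37 against 0.72, 0.07 and 0.77 and was 2.43 ± 0.37 higher (adjusted p = 3.36e-05). Ifi27l2a read 3.28, 3.51 and 3.79 against 0.88, 1.97 and 1.65 and was 2.02 ± 0.38 higher (adjusted p = 5.33e-04). The other tested Ifi genes, Ifi30, a thiol reductase of antigen processing, and Ifi27, differed by 0.01 and -0.80 without a call.

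The TRIM family, ubiquitin ligases with many roles outside the interferon response, was the largest group and the most divided. Of 23 tested at 8 h 2 were higher, 2 were lower and 19 were not called, with a median of -0.26. Trim30a, a brake on Toll-like receptor signalling, read 4.74, 4.92 and 4.86 with CpG ODN against 1.60, 2.22 and 1.58 with control ODN and 1.57, 2.87 and 1.97 in medium. It rose by 3.04 ± 0.26 (SE; adjusted p = 9.86e-10), or 8.22-fold, and its CpG arrays lay far above the others. It had the largest difference of any member at 4 h, with 1.70, 1.62, 2.15 and 2.13 against 0.60, 0.68, 0.34 and 1.01, which was 1.24 ± 0.23 (adjusted p = 0.00373) without overlap. Trim21, an intracellular antibody receptor, read 2.83, 3.03 and 2.79 against 1.21, 1.35 and 1.04 at 8 h and was 1.68 ± 0.21 higher (adjusted p = 9.18e-07).

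The lower TRIM genes were Trim7 and Trim11. Trim7 read 0.44, 0.14 and 0.41 with CpG ODN, 2.00, 1.46 and 2.61 with control ODN and 1.70, 0.26 and 1.52 in medium. Its difference from control ODN was -1.69 ± 0.30 (SE; adjusted p = 2.44e-04), and its other probe differed by -0.43. It was not called against medium, where array 2 lay among the CpG values. Trim11 read 1.27, 1.19 and 1.15 against 1.90, 2.05 and 1.99, a difference of -0.78 ± 0.21 (adjusted p = 0.0162). That call was lost without CpG array 2 (-0.77) or 3 (-0.76) or control array 2 (-0.75), and under quantile normalization (-0.53). Among the uncalled TRIM genes, Trim14 (0.80), Trim12a (0.80) and Trim25 (0.59) had the highest differences and Trim35 (-0.65), Trim59 (-0.63) and Trim41 (-0.63) the lowest. The other probe of Trim35, with 2 CpG ODN values and 1 control ODN value, differed by 0.09, and that of Trim59 by -0.82.

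**Figure D3:**
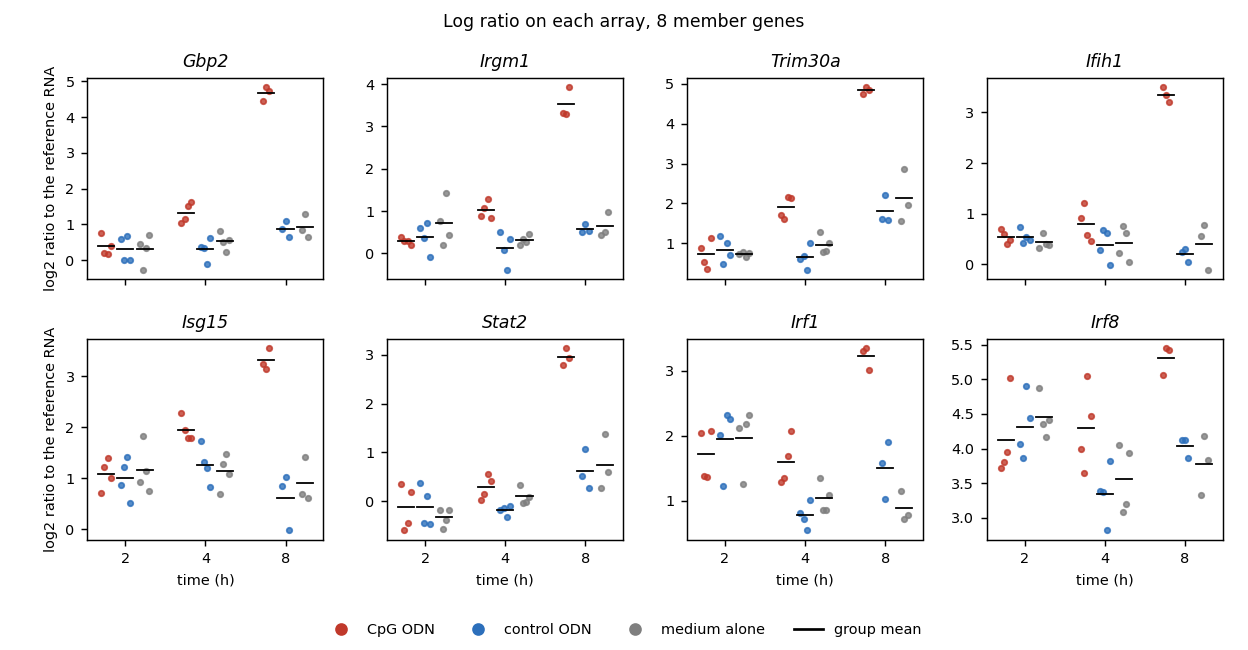
Log2 ratio to the reference RNA on every array (points) with the group mean (black line) for 8 members at 2, 4 and 8 h, in CpG ODN (red), control ODN (blue) and medium (grey). All CpG ODN points at 8 h stand above all other points of that time in these 8 genes, while at 2 h the treatments overlap.

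The members differed in how early their difference from control ODN appeared. As a share of its difference at 8 h, the difference at 4 h had a median of 22.5% over the 29 higher members. It was at or above 50% in 3, Irf4 (75.7%), Irf8 (74.2%) and Ifi47 (69.1%), and below 20% in 10, among them Ifih1 (12.9%), Adar (8.12%) and Oas1g (1.31%). Trim30a (40.9%), Parp14 (39.2%) and Gbp3 (35.2%) lay between. Of Irf4, Irf8 and Ifi47, only Ifi47 was called as rising within CpG ODN from 2 to 4 h. All but Isg20 of the 29 were above 0 at 4 h, and 8 were above 0 at 2 h. Because the 29 were chosen by their difference at 8 h, these shares are a description.

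The growth of the difference was itself tested. From 4 to 8 h the difference between CpG ODN and control ODN grew in 17 of 72 members, against 1.25% of all genes, and shrank in 0, against 0.835% (limma). Under quantile normalization the split of all called genes went from 118 growing and 79 shrinking to 120 and 19, and that of the members from 17 and 0 to 19 and 0. The largest gains were in Gbp2, from 1.03 to 3.79 (change 2.76 ± 0.33 SE, adjusted p = 3.74e-06), Ifih1, from 0.41 to 3.15 (2.75 ± 0.30, adjusted p = 8.25e-07), and Irgm1, from 0.88 to 2.94 (2.06 ± 0.34, adjusted p = 4.92e-04). For Irf4 and Irf8 the change was 0.33, with intervals from -0.50 to 1.16 and from -0.62 to 1.27, and for Ifi47 0.51, from -0.17 to 1.19. From 2 to 8 h the difference grew in 23 of 70 members, against 2.13% of all genes, and turned lower in 1, Trim7 (-1.52), against 1.13%. All called genes split into 195 and 103 there, and into 189 and 45 under quantile normalization. From 2 to 4 h 0 of 71 members were called (limma), against 0.0108% of all genes. An unadjusted p below 0.05 was found for 12 of the 71 members and for 182 of all 9260 genes.

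**Figure D4:**
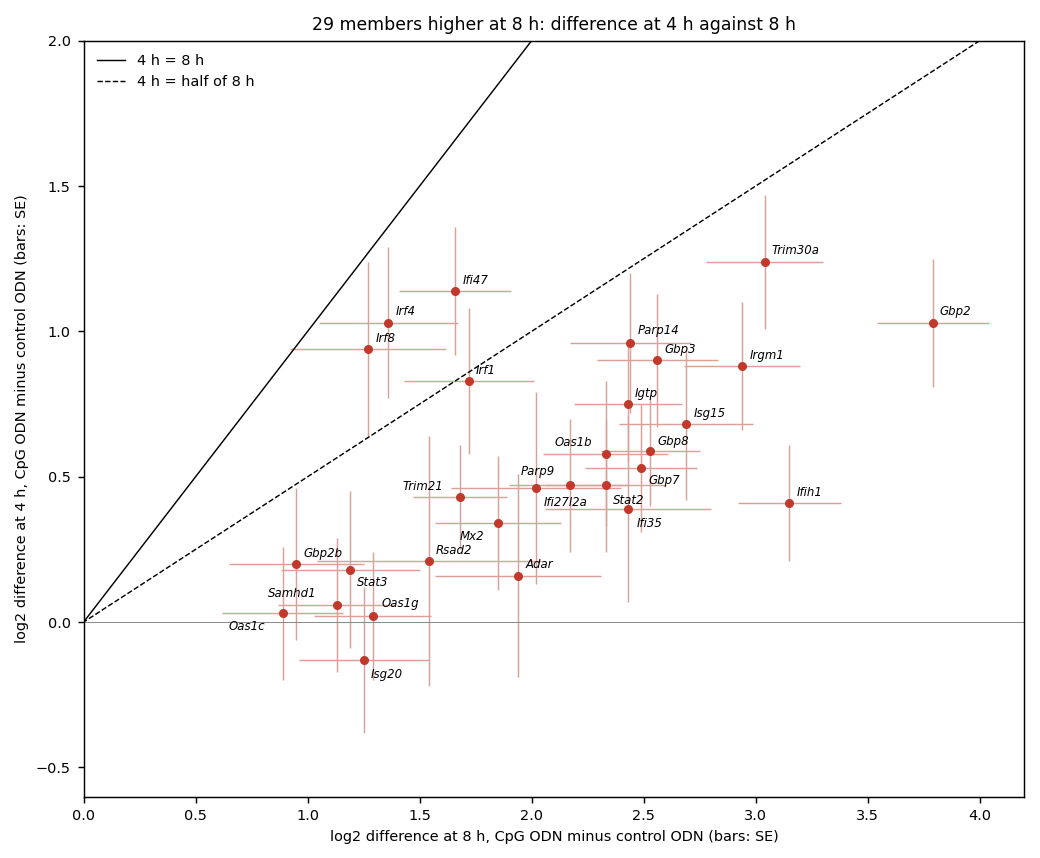
Log2 difference between CpG ODN and control ODN at 4 h (vertical) against 8 h (horizontal) for the 29 members called higher at 8 h, with standard errors. The solid line marks equal differences and the dashed line a 4 h difference at 50% of the 8 h difference; Irf4, Irf8 and Ifi47 lie between the lines, and Gbp2 and Ifih1 lie far to the right of them.

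Within CpG ODN more members rose after 4 h than before. From 2 to 4 h 6 of 73 members rose, against 0.655% of all genes called higher, and 0 fell, against 0.312%. These were Parp14 (1.65 ± 0.24 SE, adjusted p = 1.55e-04), Mx2 (1.19), Trim30a (1.18), Ifi47 (1.06), Gbp7 (0.97) and Gbp2 (0.95). The count was 3 without 2 h CpG array 3 or 4 and 2 without 4 h CpG array 4. From 4 to 8 h 27 of 72 rose, against 4.15% of all genes, and 3 fell, against 4.07%: Ifnar1 (-0.61), Trim7 (-1.16) and Trim10 (-1.59). Gbp2 gained 3.34 ± 0.24 in that interval (adjusted p = 2.95e-11), Trim30a 2.94 and Gbp8 2.83.

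Against medium, the second control, CpG ODN gave 32 higher members of 71 tested at 8 h, against 5.66% of all genes, and 2 lower, against 6.11%. Quantile normalization turned the split of all called genes from 536 higher and 579 lower to 494 and 290, and that of the members to 31 and 0. The arrays did not overlap in 32 of the 71 members with CpG ODN above, against 10.4% of all genes, and in 6 with it below, against 17.7%. Both contrasts use the same CpG ODN arrays, so their values stand side by side. All 29 members that were higher than with control ODN were also higher than in medium, and Trim12a (1.02), Trim25 (0.64) and Stat5a (1.22) were called against medium alone. No member was called lower in both: Trim7, Trim11 and Ifnar1 were called against control ODN, and Trim13 (-0.82) and Trim35 (-1.14) against medium. Gbp2 was 3.79 above control ODN and 3.74 above medium, Ifih1 3.15 and 2.94, Irf1 1.72 and 2.34, and Ifi35 2.43 and 3.17. The medium arrays of Ifi35 spread from -1.50 to 0.66. At 2 h and at 4 h 0 of 73 members were called against medium (limma). An unadjusted p below 0.05 was found for 3 and 13 members at these times, and 0.0420% and 0.218% of all genes were called, 0.0104% of them lower at 4 h.

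Control ODN and medium, which share no arrays, were not told apart at any time. The test called 0 of 71 members at 2 h, 0 of 73 at 4 h and 0 of 72 at 8 h (limma), against 0.00% of all genes at each time. An unadjusted p below 0.05 was found for 1, 2 and 4 of these members. Among all genes it was found for 229 of 9239 at 2 h, 176 of 9637 at 4 h and 379 of 9526 at 8 h. At 8 h the members' differences ran from -0.73 to 0.86. Control ODN lay above medium on all arrays in 3 members at 2 h, against 2.71% of all genes, in 0 at 4 h, against 1.22%, and in 4 at 8 h, against 2.99%. It lay below in 1, 3 and 0 members, against 1.71%, 1.66% and 3.12%.

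Culture itself moved several members. In medium, 14 of 72 members rose from 2 to 8 h, against 9.26% of all genes, and 5 fell, against 5.30%. With control ODN 10 of 71 rose, against 7.61%, and 0 fell, against 2.48%. Quantile normalization turned the members' split in medium to 10 rising and 9 falling, and with control ODN to 4 and 1. All genes then split into 663 rising and 513 falling of 9475 in medium, and 484 and 216 of 9269 with control ODN. The share of members rising with control ODN was thus near that of all genes under this setting. The genes named next were picked after their values were seen.

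Oas3 read 1.30, 1.72, 1.09 and 0.97 in medium at 2 h and 2.48, 2.17 and 2.70 at 8 h, a rise of 1.18 ± 0.28 (SE; adjusted p = 0.005). It rose by 1.47 with control ODN, and its 8 h arrays overlapped in all 3 treatments. Oas1h rose by 2.09 ± 0.58 in medium (adjusted p = 0.0143), from 0.19, 1.33, 0.44 and 0.75 to 2.45, 1.45 and 4.40, with a wide spread at 8 h. Trim35 rose by 1.61 and Trim30a by 1.41 in medium, Parp14 by 1.27 and Stat2 by 1.08. Trim30a, Parp14 and Stat2, which were higher with CpG ODN at 8 h, thus rose in cells without ODN as well.

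Irf1 fell in medium, from 2.12, 1.26, 2.18 and 2.31 at 2 h to 1.15, 0.72 and 0.77 at 8 h, a change of -1.09 ± 0.27 (SE; adjusted p = 0.00673). All 8 h arrays were below all 2 h arrays, while with CpG ODN the same gene went from 2.04, 1.38, 1.36 and 2.07 to 3.30, 3.35 and 3.01. Ifngr2 (-1.52), Trim7 (-1.27), Stat5a (-0.85) and Ifnar2 (-0.54) fell in medium too. The medium count of 19 was 9 without 8 h array 2, 11 without 8 h array 3 and 11 without 2 h array 2. The control ODN count of 10 was 5 without 2 h array 4, 3 without 8 h array 2 and 3 without 8 h array 3.

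**Figure D5:**
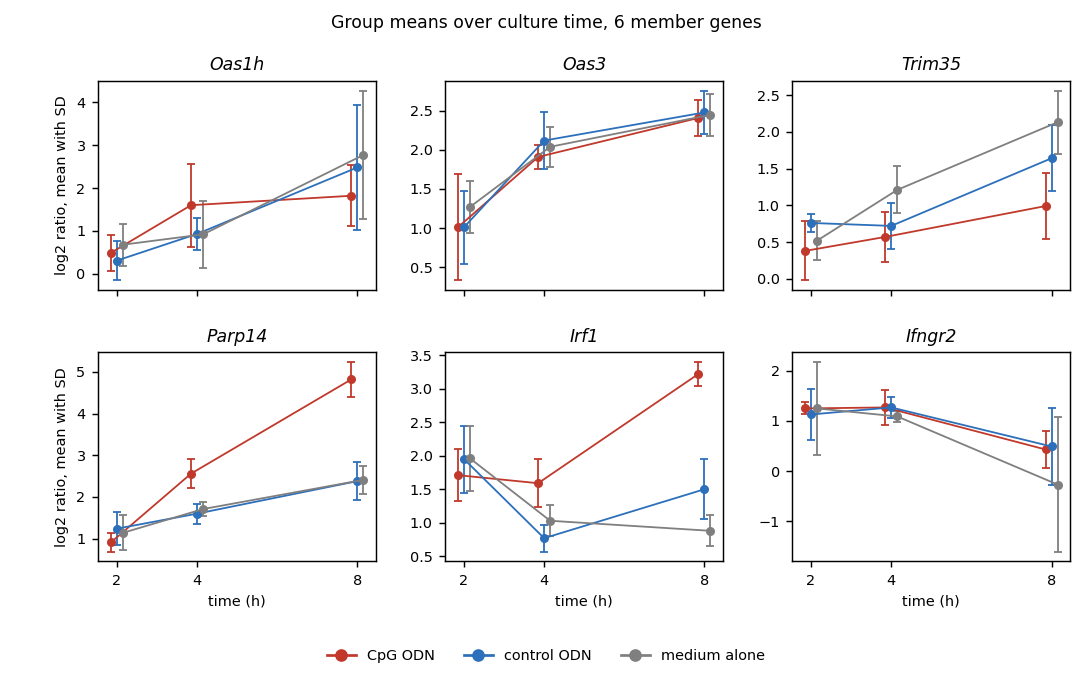
Mean log2 ratio with SD (n = 4 arrays at 2 and 4 h, 3 at 8 h) over culture time for 6 members in CpG ODN (red), control ODN (blue) and medium (grey). Oas3 rises alike in all 3 treatments, Parp14 rises in all and most with CpG ODN, and Irf1 falls in medium while it ends at 3.22 with CpG ODN.

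Other genes of the pathway also had more calls at 8 h than at 4 h. Their list holds interferons and their inducers, feedback genes, Ifit and Ifitm genes and further induced genes. It was drawn up with earlier results of these data known, so its counts are a description. Against control ODN 6 of 66 were higher at 4 h, against 0.384% of all genes. At 8 h 32 of 66 were higher, against 4.55% of all genes, and 1 was lower, Ido1 (-0.77), against 5.45%. The median difference of the 66 at 8 h was 0.73. Of 12 interferon and induction genes 4 were higher: the sensor Dhx58 (2.62), Tlr7 (2.40), the adaptor Myd88 (1.41) and the cytokine gene Ifng (1.08). The type I interferon genes of the list that were tested, Ifna4 (0.73), Ifnb1 (0.54), Ifna11 (0.03) and Ifna6 (-0.01), were not called. Among 12 feedback genes 3 were higher, led by Socs1, an inhibitor of Janus kinases (3.79 ± 0.31 SE, adjusted p = 4.25e-10), with Ptpn1 (1.13) and Socs3 (0.70). The chemokine genes Cxcl10 (4.96) and Cxcl11 (4.68) had larger differences than any member, as did Ifit3 (4.75), Ifit1 (4.43) and Cmpk2 (3.89). Ikbke, called higher at 4 h (0.87), differed by 0.03 at 8 h.

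Cell type markers moved as well at 8 h. Of 12 B cell markers 2 were lower than with control ODN (Cd79b, -1.87, and Cr2, -1.14) and 0 higher, where 5.45% of all genes were called lower and 4.55% higher. The median over the 12 was -0.41, and Ms4a1 (0.04), Blk (0.11), Vpreb3 (0.21) and Spib (0.03) were among the 10 not called. The mean of the 6 B cell markers measured on all arrays ran from 2.03 to 2.52 over the CpG ODN arrays and from 2.93 to 3.59 over the control ODN arrays. These 6 leave out Ms4a1, Blk, Vpreb3 and Spib, so their mean does not stand for the whole list. Of 11 T cell markers 4 were lower, Cd3g (-1.43), Lat (-1.20), Cd3e (-1.01) and Cd5 (-0.90). Their list had a median of -0.80, and Cd28 (0.20) and Zap70 (0.29) were above 0. Of 11 monocyte and macrophage markers 2 were lower and 1 higher (Fcgr1, 0.99), with a median of -0.61. Against medium at 8 h 1 of 11 T cell markers was lower (median -0.53) and 2 of 12 B cell markers were (median -0.05). In that comparison 579 of all 9478 genes were lower. Of 4 plasmacytoid dendritic cell markers 1 was higher, Ly6d (1.36), and Bcl11a (0.47), Pacsin1 (-0.18) and Tcf4 (-0.31) were not called, with a median of 0.14. The mean of the 2 of them measured on all arrays, Ly6d and Bcl11a, ran from 2.75 to 3.08 against 1.70 to 2.36. It leaves out Pacsin1 and Tcf4, whose differences had the other sign, so it does not stand for the whole list. The differences ran from -0.58 to 1.05 over 5 natural killer cell markers, from -0.56 to 0.57 over 7 dendritic cell markers, from -1.02 to -0.22 over 8 neutrophil markers and from -0.84 to 0.41 over 4 erythroid markers, without a call. The part of these shifts in the members' differences was not tested.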

How the data were processed

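The deposited table holds 1 value per probe and array, a log2 ratio of Cy5 (spleen cells) to Cy3 (reference RNA) prepared by the authors. Its log base is not stated; base 2 was taken from the range, -6.51 to 8.54. How the authors corrected background or normalized is not given in the sources used here. Arrays had 7908 to 11129 probes with a value, and the number of arrays limits the precision. Each array was centred on its median, and a gene was read from its probe with the fewest missing values. One limma 3.58.1 fit (R 4.3.3) took in all 33 arrays, with a mean for each of the 9 groups and Benjamini-Hochberg adjustment over all genes with at least 2 arrays in each compared group. The fit was tested on simulated data. Members and gene lists were chosen with earlier results of these data known. Members with values on every array given are, per role group, up to 4 called members with the largest difference at 8 h (or the smallest p), plus any called at 2 or 4 h; Gbp4, Irgm2, Oas1h, Oas3, Samhd1 and Usp18 were added after their values were seen. Alternatives were another normalization, no centring, genes on all arrays, probe means, unnamed probes, array weights, replicate blocks, only the compared groups, and leaving out arrays.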

Additional observations from a re-analysis of the deposited data

Results flagged for a closer look

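Of 173 groups of 4 arrays examined for the described members, 6 had an array whose gap to its nearest neighbour took up most of the group's range (Dixon's test). Chance alone sets an array apart in about 1 group in 20. In Rsad2, array 2 read 4.10 with control ODN at 2 h, where the next array read 2.87, and array 2 of medium at 2 h read 4.13, where the next read 3.30. Ifi27l2a read 0.78 on array 2 of medium at 2 h, below the next at 1.52. Stat3 read 1.69 on CpG ODN array 3 at 4 h, above the next at 0.79. Adar read 0.35 on control ODN array 4 at 2 h, below the next at 1.03, and Ifnar1 read 2.06 on medium array 4 at 4 h, above the next at 1.78.

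The difference between CpG ODN and control ODN changed with time in a test of the change itself. From 4 to 8 h the log2 difference grew in Gbp2 (2.76), Ifih1 (2.75), Irgm1 (2.06), Ifi35 (2.04), Isg15 (2.01), Gbp7 (1.96), Gbp8 (1.94), Stat2 (1.86), Trim30a (1.80), Oas1b (1.75), Parp9 (1.70), Igtp (1.68), Gbp3 (1.66), Mx2 (1.50), Parp14 (1.48), Oas1g (1.28) and Trim21 (1.25). From 2 to 8 h it grew in Gbp2 (3.73), Trim30a (3.15), Ifih1 (3.15), Irgm1 (3.04), Gbp7 (2.92), Parp14 (2.78), Gbp8 (2.77), Igtp (2.67), Isg15 (2.61), Ifi35 (2.61), Gbp3 (2.43), Oas1b (2.41), Stat2 (2.35), Ifi27l2a (2.35), Parp9 (2.34), Mx2 (2.04), Irf1 (1.96), Adar (1.95), Ifi47 (1.77), Trim21 (1.74), Isg20 (1.53), Samhd1 (1.49) and Oas1g (1.18), and it went down in Trim7 (-1.52). The 8 h arrays are the same in both sets of changes.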

How the results depend on the processing

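Of 35 called differences of single members, 24 were called under every alternative and 11 lost the call under at least 1; over all alternatives 522 values kept their call, 37 lost it and 0 changed direction. Members called at 8 h ranged from 28 to 36 against control ODN (32 as reported) and from 24 to 39 against medium (34), and without single arrays from 25 to 32 and from 28 to 32. The 3 calls at 4 h against control ODN became 0 in a fit of the compared groups only, 7 with the replicate block within each time and 9 with array weights, and 2 to 5 without single arrays. Against medium at 4 h, 0 became 1 with quantile normalization, 1 with that block and 4 with array weights, and the growth from 2 to 4 h went from 0 to 2 with array weights. Within CpG ODN from 2 to 4 h, 6 became 1 with the compared groups only, 10 with array weights and 2 to 7 without single arrays. From 2 to 8 h, the control ODN count of 10 became 5 with quantile normalization, 4 with the compared groups only and 3 to 13 without single arrays, and the medium count of 19 became 4 with the compared groups only and 9 to 19 without single arrays. The cause was not tested, except that fits of the compared groups only, and those without an array, use fewer arrays. At 8 h, with the compared groups only, Adar (1.94), Gbp2b (0.95), Oas1c (0.89) and Ifnar1 (-0.67) kept their values and lost the call, as did Trim30a (1.24), Ifi47 (1.14) and Gbp2 (1.03) at 4 h. Same-numbered arrays of a time correlated above 0.1 in 21 of 33 pairs (median 0.361, lowest -0.412; median -0.124 for different numbers), and 22 of 33 arrays correlated best with their own number, so not every same-numbered pair deviates together and no block was used in the reported values; a replicate block gave 36 calls at 8 h against control ODN and 38 against medium.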
